A study of Homo sapiens with 12 samples.

Results

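The genes described here are 8 members of the Notch pathway read in a human kidney cell line: the ligands DLL1, JAG1 and JAG2, the receptors NOTCH1, NOTCH2 and NOTCH3, and the target genes HES1 and HEY1. They are 8 of 19775 genes that had a probe set annotated to exactly 1 symbol. For each gene the brightest probe set was taken. The probe sets were thus chosen by their mean signal over all 12 arrays, which ran from 3.50 for DLL1 to 11.11 for NOTCH2, and not by a difference between groups. The 8 genes themselves were chosen with earlier results of these data known. All 8 passed the filter for testing, a log2 signal above 4 on at least 3 of the 12 arrays.

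HK-2 cells, an immortalised epithelial line from the human proximal tubule, were exposed to a compound labelled CdCl for 12 h, to its control vehicle for 12 h, to CdCl for 48 h, or to the vehicle for 48 h. Each of the 4 groups held 3 biological replicates, with 1 Affymetrix array each. All groups shared a medium with EGF, hydrocortisone, insulin, transferrin and selenite. No dose is stated in the sources used here, and a single line stands for the tubule.

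Notch is a signal between touching cells. A ligand of the Delta or Jagged family on one cell pulls on a Notch receptor of its neighbour, proteases of the ADAM family and then gamma-secretase cut the receptor, and the freed intracellular domain enters the nucleus. There it joins the DNA-binding protein RBPJ and a Mastermind coactivator and switches on HES and HEY genes, which encode transcriptional repressors. In the kidney Notch patterns the developing nephron, and it is known to be active again in injured tubules.

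Promoter sequences of the RefSeq table (build GRCh38.p14) matched 6 of the 8 genes by symbol, not DLL1 and HEY1. The 250 bases before the start were searched on both strands for the RBPJ letters GTGNGAA, the HES N-box letters CACNAG, the metal response core of MTF1 (TGCGCNC or TGCACNC) and the antioxidant response core of NRF2 (TGACNNNGC). MTF1 is the factor that turns on metallothionein genes in cells exposed to zinc or cadmium. The HES1 promoter, shown because it held both RBPJ matches found, lies at chr3:194135898-194136147 on the plus strand. The JAG1 promoter, shown for its metal response letters, lies at chr20:10674000-10674249 on the minus strand. Both are written 5′ to 3′ along the gene, with the RBPJ matches of HES1 and the metal response matches of JAG1 in capitals.
HES1 promoter: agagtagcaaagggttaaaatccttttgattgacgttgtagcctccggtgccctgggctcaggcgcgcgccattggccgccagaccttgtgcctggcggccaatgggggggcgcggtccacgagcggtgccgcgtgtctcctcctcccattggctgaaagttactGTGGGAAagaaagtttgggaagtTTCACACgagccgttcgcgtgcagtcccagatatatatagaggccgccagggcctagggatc
JAG1 promoter: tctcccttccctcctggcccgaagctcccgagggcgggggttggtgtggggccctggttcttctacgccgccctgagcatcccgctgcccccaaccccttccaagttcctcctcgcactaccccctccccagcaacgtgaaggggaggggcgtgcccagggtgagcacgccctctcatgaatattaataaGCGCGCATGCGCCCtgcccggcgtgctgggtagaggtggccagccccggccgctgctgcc

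In HES1 the RBPJ letters ran from -85 to -79 on the gene's strand and from -62 to -56 on the other, counted from the start. Of 35116 promoters of this length, 11.6% held the RBPJ letters at least once and 0.906% at least 2 times. HES1 also held 3 N-boxes, one of which (-58 to -53) overlapped the second RBPJ match, and 1 metal response core from -46 to -40. In JAG1 the 2 metal response cores abutted, from -60 to -54 on the opposite strand and from -53 to -47 on the gene's strand, and 6.48% of all promoters held at least 2. NOTCH1 held 1 metal response core and NOTCH3 held 1 N-box. Of all promoters, 24.8% held the metal response core, 32% the N-box and 10.9% the antioxidant core, which had no match in these 6 windows. These matches describe letters only.

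Array medians ran from 2.97 to 3.04, and arrays of a group correlated at 0.9965 to 0.9982 against 0.9731 to 0.9890 between groups. Against the labelled cell type, 9 of 10 renal tubular epithelial markers, all but PAX2, were above 4 in every group, while 0 of 5 endothelial and 0 of 2 leukocyte markers were. COL1A1 and DCN among 6 stromal markers and AQP2 among 4 markers of other tubule segments were above 4 in every group. The summed tubular list was lowest in CdCl cells at 48 h, at 91.0 to 91.2, and ran from 95.9 to 98.7 in the other groups. Poly-A spike controls were brighter in CdCl arrays at 12 h, at 7.31 to 7.32 against 6.69 to 6.96 in control arrays, and overlapped at 48 h (5.99 to 6.92 against 6.29 to 6.51). Within each treatment they were also brighter at 12 h than at 48 h. The log2 signal of the actin 3′ control minus that of the 5′ control was 1.71 to 2.11 in control arrays at 12 h and 1.36 to 1.57 at 48 h. In CdCl arrays this difference was 1.69 to 1.80 at 12 h and 1.40 to 1.82 at 48 h. The part of these differences in the results was not tested. In such bulk samples fewer cells of a kind and less RNA per cell cannot be told apart.

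The first comparison asked which of the genes CdCl had changed by 12 h. The target genes HES1 and HEY1 rose, and JAG2, NOTCH1 and NOTCH2 fell, while DLL1, JAG1 and NOTCH3 did not pass the test. That is 5 of 8 called by limma at an adjusted p under 0.05, where 56.4% of all 10683 genes tested were called, 16.7% higher and 39.7% lower. The 8 genes had a median log2 change of -0.09, and all genes tested one of -0.16. With each array centred on the median of the genes tested, an alternative chosen after seeing the data, 2607 of all genes were higher and 2830 lower, against 1783 and 4246 as deposited, and 2 of the 8 were higher and 2 lower.

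At 48 h DLL1 and HEY1 were higher and JAG1 and NOTCH1 lower, and the other 4 did not pass. Among all genes tested 54.6% were called, 26.5% higher and 28.0% lower, so the share called among the 8 was near the background at both times. The median change was -0.04 for the 8 and -0.02 for all genes. The effect of CdCl differed between the times, tested as 48 h minus 12 h, for DLL1, JAG1, JAG2, NOTCH2 and HES1, against 40.1% of all genes. Of these 5, DLL1, JAG2 and NOTCH2 had a positive difference (27.0% of all genes) and JAG1 and HES1 a negative one (13.0%). DLL1 passed the filter only through the CdCl 48 h arrays, so its calls at 48 h and between the times had to follow.

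**Figure D1:**
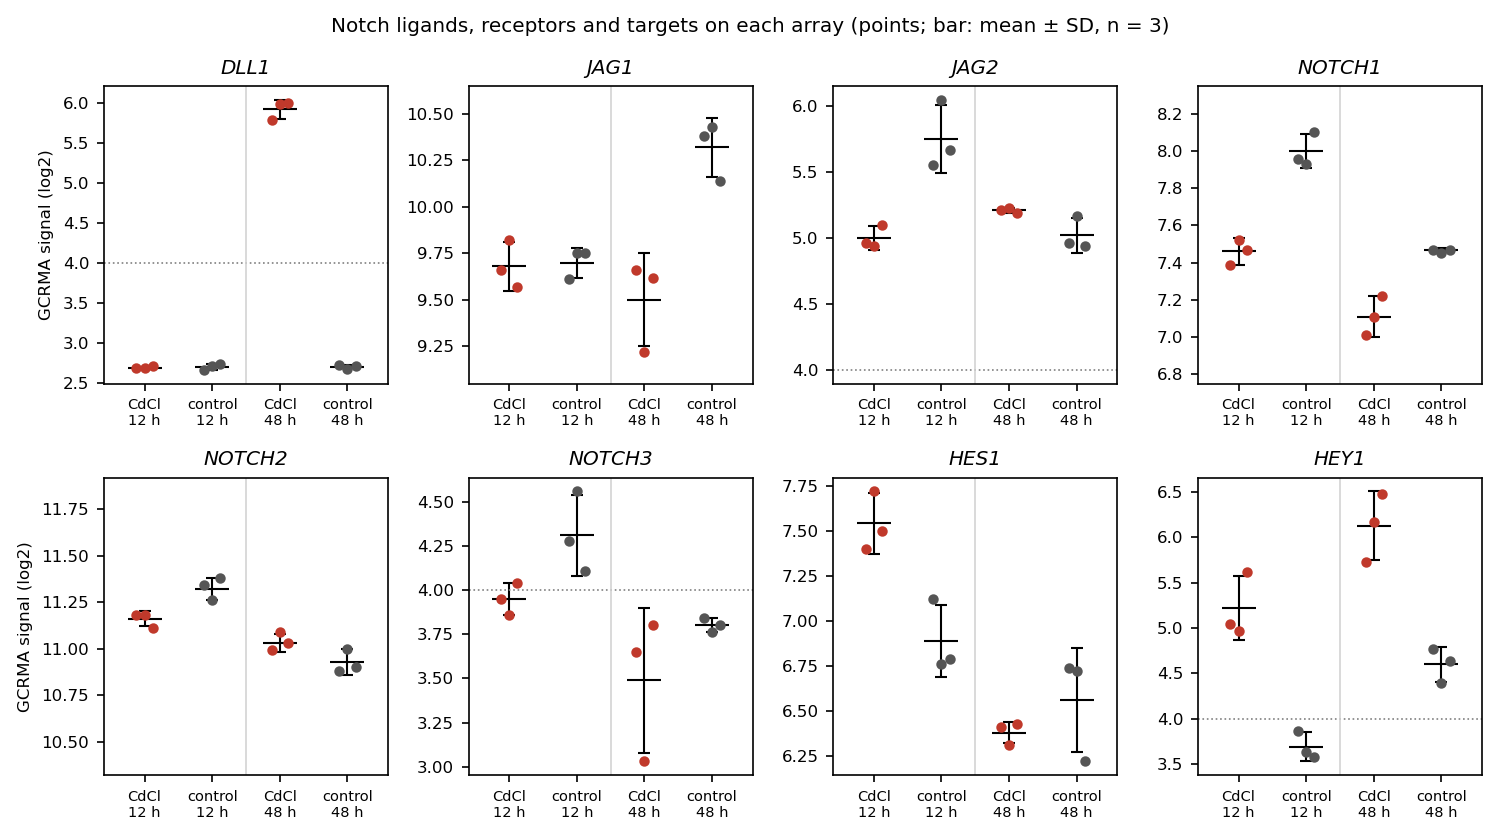
Log2 signal (vertical axis) of each of the 8 genes on each of the 12 arrays (points) in the 4 groups along the horizontal axis, with bars for the mean ± SD of 3 arrays and a dotted line at 4 where it falls in range. DLL1 stood above 4 only in CdCl cells at 48 h, and HEY1 was higher in CdCl than in control cells at both times.

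DLL1, a Delta-type ligand, read 2.69, 2.68 and 2.71 in CdCl cells at 12 h and 2.66, 2.71 and 2.73 in control cells at 12 h. At 48 h DLL1 read 5.79, 5.98 and 6.00 in CdCl cells and 2.72, 2.67 and 2.71 in control cells. The 9 arrays outside the CdCl 48 h group lay together below 4, and the CdCl 48 h arrays lay far above them.

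DLL1 was at least 3.8-fold higher in CdCl than in control cells at 48 h (log2 change 3.22 ± 0.07 SE, limma adjusted p = 6.4e-11, n = 3 arrays per group), with the control group set to the floor of 4. At 12 h both groups were under the floor (-0.01 ± 0.07, adjusted p = 0.95). The difference between the times was 3.23 ± 0.09 (limma adjusted p = 4.2e-09). These SEs pool the spread of the 4 groups, and the SD was 0.12 in CdCl cells at 48 h. In the other groups, all under 4, the SD was 0.01 to 0.04, so the SEs and p-values partly reflect signals under the floor. In a limma fit of only the groups compared, the 48 h change had an adjusted p of 1.5e-06. DLL1 passed the filter only through the CdCl 48 h arrays, so a tested DLL1 had to differ. A second DLL1 probe set stayed below 4 on all 12 arrays, with a mean of 2.65 in CdCl cells at 48 h, and the mean of both probe sets changed by 1.59.

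JAG1, a Jagged-type ligand, read 9.66, 9.82 and 9.57 in CdCl cells at 12 h and 9.61, 9.75 and 9.75 in control cells at 12 h. At 48 h JAG1 read 9.66, 9.22 and 9.62 in CdCl cells and 10.38, 10.43 and 10.14 in control cells. The control 48 h arrays stood above the other 9, which overlapped one another.

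JAG1 was 1.76-fold lower in CdCl than in control cells at 48 h (-0.82 ± 0.12, limma adjusted p = 1.7e-04), and its change at 12 h was -0.02 ± 0.12 (adjusted p = 0.9). Between the times control cells gained 0.61 ± 0.12 (limma adjusted p = 0.0012), while CdCl cells differed by -0.18 ± 0.12 (adjusted p = 0.23). The 48 h effect and the control time course share the control 48 h arrays. The interaction was -0.79 ± 0.18 (limma adjusted p = 0.0041). The 3 other JAG1 probe sets above 4 on every array also fell at 48 h, by 1.11, 0.80 and 0.78 on the log2 scale. On the last of these the control rise over time was 0.28 (limma adjusted p = 0.066), and the change in CdCl cells was -0.30 (adjusted p = 0.047).

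JAG2, the other Jagged ligand, read 4.96, 4.94 and 5.10 in CdCl cells at 12 h and 5.55, 6.05 and 5.67 in control cells at 12 h. At 48 h JAG2 read 5.21, 5.23 and 5.19 in CdCl cells and 4.96, 5.17 and 4.94 in control cells. The control 12 h arrays were the high ones, and all others lay within 4.94 to 5.23.

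JAG2 was 1.69-fold lower in CdCl than in control cells at 12 h (-0.76 ± 0.12, limma adjusted p = 1.9e-04), or -0.59 relative to the median of all genes. At 48 h its 3 CdCl arrays lay just above the 3 controls without passing the test (0.19 ± 0.12, limma adjusted p = 0.2). The interaction was 0.94 ± 0.16 (limma adjusted p = 0.001). In control cells JAG2 was 1.66-fold lower at 48 h than at 12 h (-0.73 ± 0.12, limma adjusted p = 2.1e-04). This change, the 12 h effect and the interaction all share the control 12 h arrays. The second JAG2 probe set gave -0.77 at 12 h but was not called (limma adjusted p = 0.072), and its control arrays spread from 4.94 to 6.05. On that probe set the interaction was 1.09 (limma adjusted p = 0.097). Its change over time in control cells was -0.61 (adjusted p = 0.16), and neither was called.

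Among the receptors, NOTCH1 fell at both times. NOTCH1 read 7.39, 7.52 and 7.47 in CdCl cells at 12 h and 7.96, 7.93 and 8.10 in control cells at 12 h. At 48 h NOTCH1 read 7.01, 7.11 and 7.22 in CdCl cells and 7.47, 7.45 and 7.47 in control cells. CdCl arrays lay below their controls without overlap at each time, and CdCl cells at 12 h overlapped with control cells at 48 h.

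NOTCH1 was 1.45-fold lower with CdCl at 12 h (-0.54 ± 0.07, limma adjusted p = 8.8e-05; -0.38 relative to the median of all genes) and 1.28-fold lower at 48 h (-0.35 ± 0.07, adjusted p = 0.0017). The difference between these effects was 0.18, with a 95% interval of -0.05 to 0.41 (limma adjusted p = 0.19). NOTCH1 also fell over time, by 0.35 in CdCl cells and by 0.53 in control cells. The fall in control cells and the 12 h effect share the control 12 h arrays. The other NOTCH1 probe set was below 4 on every array, and the mean of both changed by -0.28 at 12 h and -0.17 at 48 h.

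NOTCH2, the receptor that proximal tubules need to form in the mouse, read 11.18, 11.18 and 11.11 in CdCl cells at 12 h and 11.34, 11.26 and 11.38 in control cells at 12 h. At 48 h NOTCH2 read 10.99, 11.09 and 11.03 in CdCl cells and 10.88, 11.00 and 10.90 in control cells. The 12 h groups did not overlap and the 48 h groups did, all within a narrow range.

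NOTCH2 was 1.12-fold lower with CdCl at 12 h (-0.17 ± 0.06, limma adjusted p = 0.042), which was -0.01 relative to the median of all genes. Centring on the genes tested left -0.02 (limma adjusted p = 0.84), and the call was lost in 12 of 21 alternatives, 7 of them leaving out 1 array. At 48 h NOTCH2 differed by 0.11 ± 0.06 (limma adjusted p = 0.18), and the interaction of 0.27 ± 0.09 (adjusted p = 0.031) was lost in 11 of 20 alternatives. The 3 other NOTCH2 probe sets gave 0.27, -0.09 and -0.08 at 12 h, with no call. In control cells NOTCH2 was 1.32-fold lower at 48 h than at 12 h (-0.40 ± 0.06, limma adjusted p = 2.4e-04), but -0.04 on one of those probe sets. A further probe set annotated to NOTCH2 and a NOTCH2NL copy was left out, and reads from such copies on the probe sets used were not tested.

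NOTCH3 lay at the edge of the readable range. It read 3.95, 3.86 and 4.04 in CdCl cells at 12 h and 4.28, 4.56 and 4.11 in control cells at 12 h. At 48 h NOTCH3 read 3.65, 3.03 and 3.80 in CdCl cells and 3.84, 3.76 and 3.80 in control cells. Only 4 arrays exceeded 4, 3 of them controls at 12 h.

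The change of NOTCH3 with CdCl was -0.36 ± 0.17 at 12 h (limma adjusted p = 0.091) and -0.31 ± 0.17 at 48 h (adjusted p = 0.15). Neither was called, and a call appeared in 2 of 19 alternatives at 12 h and in 1 of 19 at 48 h. The 12 h change passed without CdCl 48 h replicate 2, which had the lowest value (limma adjusted p = 0.012). It also passed in a fit of only the groups compared (adjusted p = 0.035). Without CdCl 48 h replicate 3 the 48 h change was -0.46 (adjusted p = 0.041). NOTCH3 passed the filter mainly through the control 12 h arrays. Its difference over time was -0.46 in CdCl cells (limma adjusted p = 0.035), where all but 1 array lay under 4, and -0.52 in control cells (adjusted p = 0.023). Neither passed without the filter on low values (limma adjusted p = 0.093 and 0.066). The difference in CdCl cells became -0.23 without CdCl 48 h replicate 2 (limma adjusted p = 0.12), and it was also lost without any 1 of the CdCl 12 h replicates. That in control cells became -0.39 without control 12 h replicate 2 (adjusted p = 0.096), and was lost as well without control 48 h replicate 2 or 3.

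**Figure D2:**
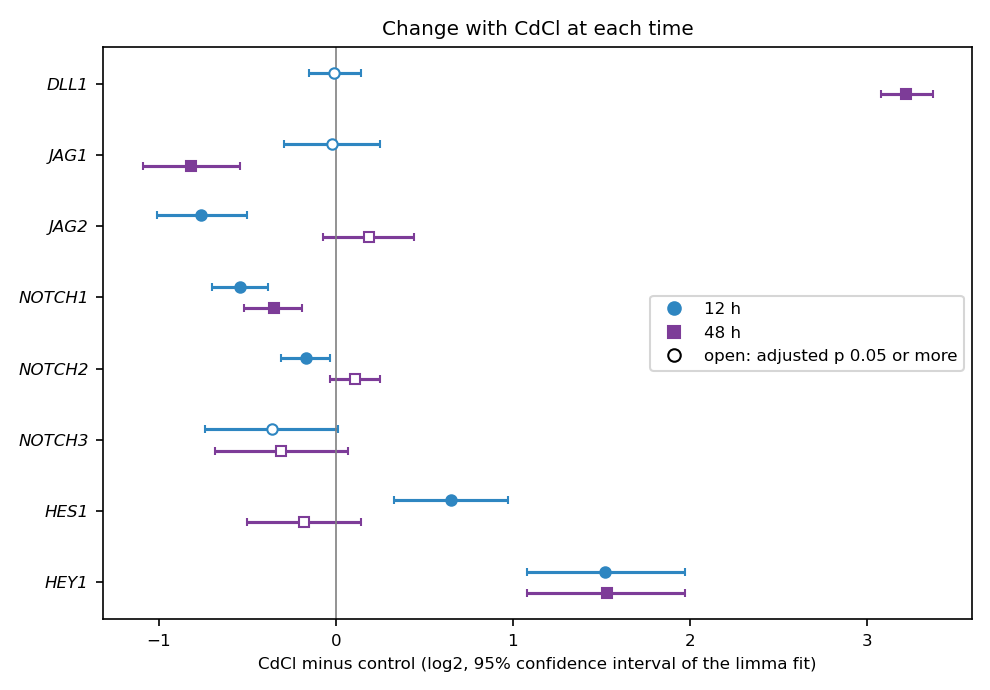
Log2 change of CdCl minus control (horizontal axis) with its 95% confidence interval for each gene, at 12 h (circles) and 48 h (squares), with open symbols where the adjusted p was 0.05 or more. HEY1 changed by 1.52 at 12 h, where its control arrays lay under 4, and by 1.53 at 48 h. HES1, on the probe set used, lay above 0 at 12 h only.

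Of the targets, HES1 encodes a bHLH repressor that in the mouse also represses its own promoter through N-boxes. HES1 read 7.40, 7.72 and 7.50 in CdCl cells at 12 h and 7.12, 6.76 and 6.79 in control cells at 12 h. At 48 h HES1 read 6.41, 6.31 and 6.43 in CdCl cells and 6.74, 6.72 and 6.22 in control cells. The CdCl 12 h arrays were the highest of all, and the 48 h groups overlapped.

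HES1 was 1.57-fold higher with CdCl at 12 h (0.65 ± 0.14, limma adjusted p = 0.0025; 0.81 relative to the median of all genes). At 48 h its change was -0.18 ± 0.14 (limma adjusted p = 0.32), and -0.35 without control 48 h replicate 3 (adjusted p = 0.036). The interaction was -0.83 ± 0.20 (limma adjusted p = 0.0078). In CdCl cells HES1 was 2.24-fold lower at 48 h than at 12 h (-1.16 ± 0.14, limma adjusted p = 2.6e-05), and in control cells it differed by -0.33 ± 0.14 (adjusted p = 0.07). A second HES1 probe set rose at 12 h too (0.84, limma adjusted p = 0.011). At 48 h that probe set stood at 0.48 (limma adjusted p = 0.14), its interaction was -0.37 (adjusted p = 0.55) and its change over time in CdCl cells was -0.39 (adjusted p = 0.22), so the calls on the difference between the times rest on the brighter probe set. As the mean of the HES1 probe sets the interaction was -0.38 and the change over time in CdCl cells -0.50.

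HEY1, a related bHLH repressor, read 5.05, 4.97 and 5.62 in CdCl cells at 12 h and 3.87, 3.63 and 3.58 in control cells at 12 h. At 48 h HEY1 read 5.73, 6.17 and 6.48 in CdCl cells and 4.77, 4.39 and 4.64 in control cells. Groups next to each other in level did not overlap, in the order CdCl 48 h, CdCl 12 h, control 48 h, control 12 h from high to low.

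HEY1 was at least 2.32-fold higher with CdCl at 12 h, since its control arrays lay under 4 (1.52 ± 0.20, limma adjusted p = 7.1e-05). At 48 h it was 2.88-fold higher (1.53 ± 0.20, limma adjusted p = 6.3e-05). With the 12 h fold known only as a lower bound, the effects at the 2 times cannot be set against each other closely. The fitted difference was 0.01 (limma adjusted p = 0.99). HEY1 also rose with time, by 0.91 ± 0.20 in CdCl cells (limma adjusted p = 0.0021), and was at least 1.51-fold higher at 48 h than at 12 h in control cells (0.90 ± 0.20, adjusted p = 0.0025). Its second probe set exceeded 4 on 1 array only, and the mean of both rose by 0.94 at 12 h.

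**Figure D3:**
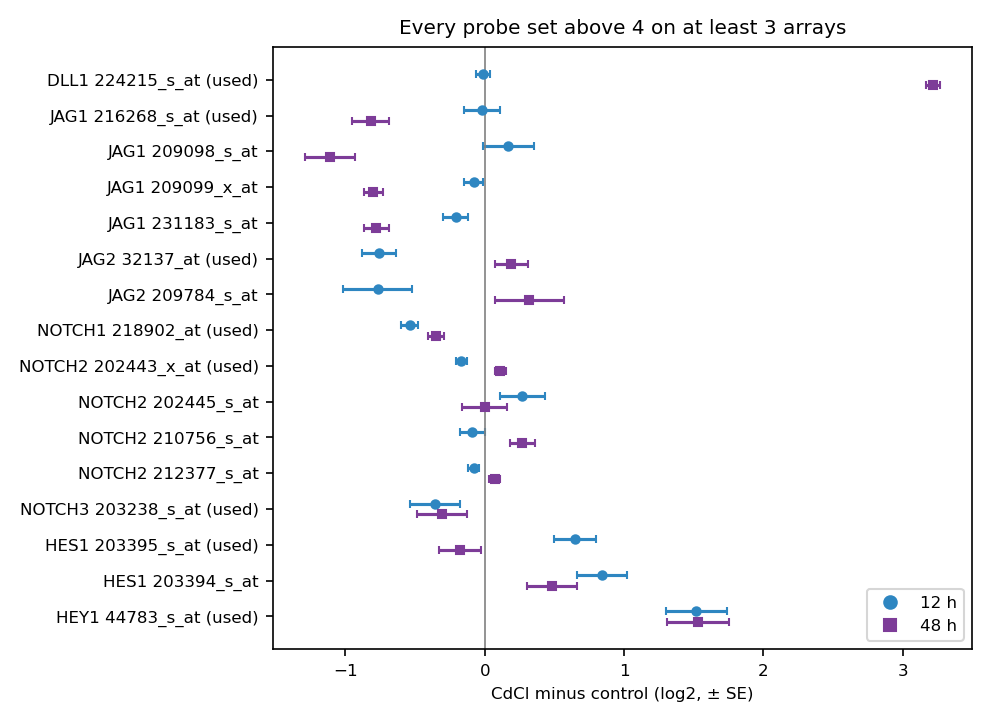
Log2 change of CdCl minus control ± SE (horizontal axis) for each probe set of the 8 genes above 4 on at least 3 arrays, at 12 h (circles) and 48 h (squares), with the probe set used marked. The JAG1 probe sets all lay below 0 at 48 h, while the HES1 probe sets lay on both sides of 0 at 48 h.

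Several of these genes also differed between the times. The spike controls differed between the times as well, and in control arrays so did the actin controls. The part of this in the changes below was not tested. In control cells at 48 h against 12 h, JAG1 and HEY1 were higher and JAG2, NOTCH1, NOTCH2 and NOTCH3 lower, the last near the floor, where 56.9% of all genes were called, 23.4% higher and 33.5% lower. In CdCl cells DLL1 and HEY1 were higher and NOTCH1, NOTCH3 and HES1 lower over the same time, against 62.3% of all genes, 34.7% higher and 27.6% lower. The median of the 8 changes was -0.15 in CdCl cells and -0.36 in control cells, beside 0.05 and -0.06 for all genes tested. The changes over time share arrays with the effects of CdCl at each time, so their calls are not independent.

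The wider pathway was read on a list of 69 genes in 9 groups, of which 64 had a probe set with 1 symbol and 45 passed the filter. At 12 h 8 of the 45 were higher, 14 lower and 23 not called. At 48 h 10 were higher, 12 lower and 23 not called. That is 48.9% called at each time, under the 56.4% and 54.6% of all genes, and the list medians were -0.05 and -0.01. Centred on the genes tested, the 12 h split was 14 higher and 8 lower.

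Among the other ligands and receptors 4 of 6 were tested, with 1 higher at 12 h and 2 higher and 1 lower at 48 h. DNER, a transmembrane protein with EGF repeats reported as an unconventional Notch ligand, averaged 6.10 in CdCl cells and 2.86 in control cells at 12 h. At 48 h DNER averaged 6.10 in CdCl cells and 2.85 in control cells, and it was at least 4.28-fold higher at both times (log2 change 3.24 ± 0.25 and 3.25 ± 0.25). Its CdCl arrays ran from 5.90 to 6.29 at 12 h and from 5.34 to 6.64 at 48 h. The SE pools these spreads with those of the control arrays. All control arrays of DNER lay under 4, so it passed the filter only through its CdCl arrays and, once tested, had to differ. DLL3, a divergent ligand that does not activate receptors on neighbouring cells, rose by 0.53 at 48 h. It lay near the floor, with means of 4.71 in CdCl cells and 4.19 in control cells. DLK2, a Delta-like protein that lacks the receptor-binding DSL domain, fell by 0.37 at 48 h, with means of 4.65 in CdCl cells and 5.03 in control cells.

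Of the enzymes that put sugars on Notch receptors, 4 of 4 tested were called lower with CdCl at 12 h, where 39.7% of all genes were. Their median was -0.55 beside -0.16 for all genes, and RFNG, another Fringe enzyme, stood at -0.27 (limma adjusted p = 0.047), or -0.11 relative to the median of all genes. LFNG, a Fringe glycosyltransferase that alters which ligands a receptor answers, changed by -0.60 at 12 h and -1.16 at 48 h (limma adjusted p = 0.0028 and 2.5e-05). POGLUT1, which adds O-glucose, fell by 0.67 at 12 h. POFUT1, which adds O-fucose, changed by -0.49 at 12 h and -0.52 at 48 h, and its 12 h call was lost without CdCl 12 h replicate 3 (limma adjusted p = 0.056), without control 12 h replicate 2 (0.060) and after centring on the genes tested (0.070). At 48 h 2 of the 4 were lower and 2 not called.

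Of the genes for receptor processing 3 of 7 were lower at 12 h, and 2 were higher and 1 lower at 48 h. The gamma-secretase subunits PSEN2 and NCSTN fell at 12 h by 0.47 and 0.34. ADAM10, the protease that makes the first activating cut, fell by 0.78 at 48 h (SE 0.08, limma adjusted p = 1.1e-05). Its 12 h change of -0.21 was -0.05 relative to the median of all genes and lost its call in 15 of 21 alternatives. ADAM17, a related protease, and PSENEN, a further gamma-secretase subunit, rose at 48 h by 0.43 and 0.47. Of the 2 ligand endocytosis genes tested, MIB1, the ubiquitin ligase that lets ligands pull, was higher by 0.21 at 12 h, a call lost in 12 of 21 alternatives.

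In the nuclear complex, RBPJ and its coactivators, 2 of 7 genes were lower at 12 h, and 1 was higher and 4 lower at 48 h. RBPJ itself, named after its values were seen, was among those lower at 48 h (-0.22, limma adjusted p = 0.019). MAML1, a Mastermind coactivator, changed by -0.67 at 12 h and -0.31 at 48 h. KAT2B, a histone acetyltransferase, changed by -0.61 at 12 h and -1.35 at 48 h, the first lost without CdCl 12 h replicate 2 (limma adjusted p = 0.054). EP300, another acetyltransferase, fell by 0.42 at 48 h, and by 0.23 without CdCl 48 h replicate 2 (limma adjusted p = 0.076); it also lost its call without control 48 h replicate 1 or 2. Of 5 corepressors of RBPJ, 1 was higher and 1 lower at each time. CTBP1 changed by -0.93 at 12 h and -0.65 at 48 h, TLE4 by 0.42 at 12 h and TLE1 by 0.22 at 48 h. The TLE4 value was 0.24 without CdCl 12 h replicate 2 (limma adjusted p = 0.11) and was also lost without control 12 h replicate 1 or 3.

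Of 9 genes for inhibition and turnover of receptors, 2 were higher and 3 lower at 12 h, and 2 were higher and 1 lower at 48 h. NEDD4, a ubiquitin ligase of membrane proteins, was 3.54-fold higher at 12 h (1.82 ± 0.07, limma adjusted p = 4.1e-09) and 1.28-fold higher at 48 h. DTX4, of the Deltex ubiquitin ligases, rose by 0.41 at 12 h, and AAK1, a kinase of endocytosis, by 0.64 at 48 h. FBXW7, which marks the intracellular domain for destruction, changed by -0.41 at 12 h and -0.34 at 48 h. The FBXW7 calls were lost without control 12 h replicate 1 or 2 at 12 h (limma adjusted p = 0.057 and 0.060), and at 48 h without CdCl replicate 1 or 2 or control replicate 2 (0.073, 0.12 and 0.16).

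Of 9 further HES, HEY and BHLHE genes 3 were tested. HES4 did not pass at 12 h (0.06 ± 0.10) and was 2.21-fold higher at 48 h (1.15 ± 0.10, limma adjusted p = 2.6e-06). BHLHE40, a bHLH repressor best known from stress and the clock, was 1.74-fold higher at 12 h (0.80 ± 0.09) and stood at -0.13 at 48 h (adjusted p = 0.24). Its relative BHLHE41 changed by -0.36 at 12 h and -0.48 at 48 h. The last list group held 4 genes, other reported targets and NOTCH2NLA, a NOTCH2NL copy that was not called at either time. In this group CCND1, the cyclin of G1 entry, was 1.74-fold higher at 12 h and 2.58-fold higher at 48 h. SOX9, a transcription factor of injured tubules, rose by 0.54 at 12 h, a call lost without CdCl 12 h replicate 2 (limma adjusted p = 0.057). MYC, a growth-promoting transcription factor, fell by 0.29 at 48 h. As the mean of a gene's probe sets the 12 h change of NCSTN was -0.15, that of BHLHE41 -0.05 and the 48 h change of TLE1 0.15, each without a call. Centred on the genes tested, NCSTN stood at -0.19 and BHLHE41 at -0.21 at 12 h, both called, and KAT2B at -0.46 (limma adjusted p = 0.05) and FBXW7 at -0.26 (adjusted p = 0.077), both not called. Among the genes with several probe sets, their mean also gave LFNG -0.30 at 12 h and -0.58 at 48 h, POFUT1 -0.24 and -0.27, PSEN2 -0.30 at 12 h, AAK1 0.22 at 48 h and BHLHE40 1.22 at 12 h, all called.

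**Figure D4:**
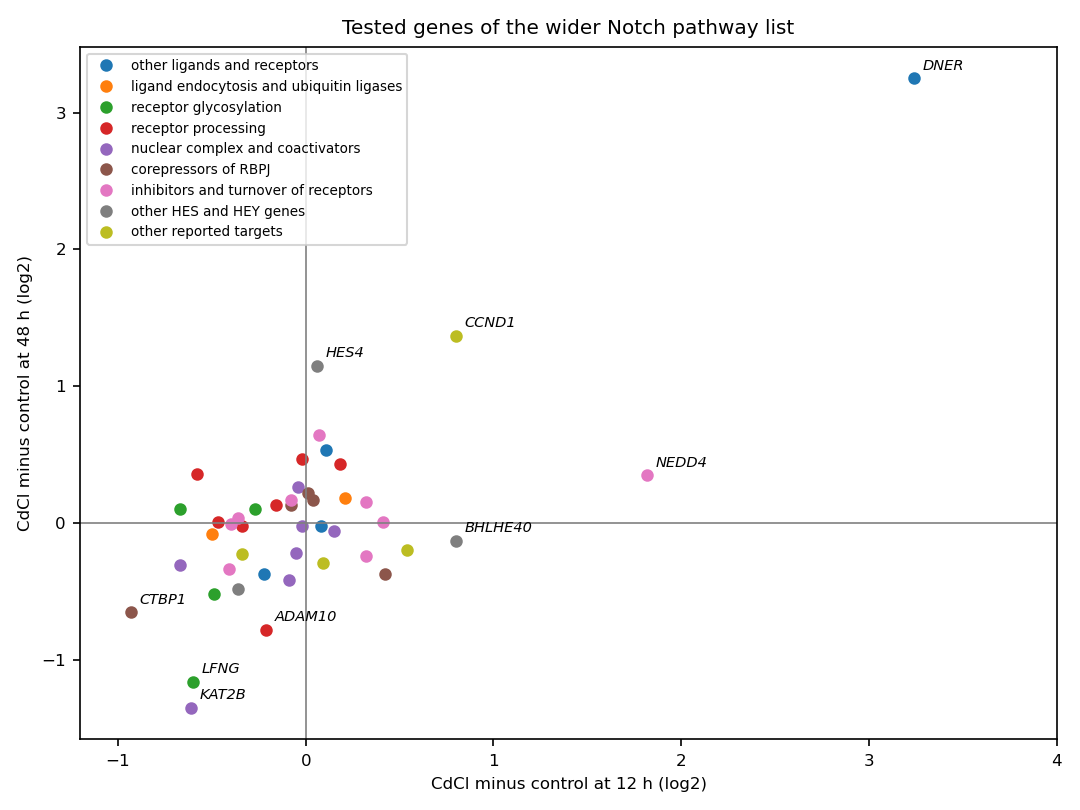
Log2 change of CdCl minus control at 12 h (horizontal axis) and at 48 h (vertical axis) for the 45 tested genes of the wider list, coloured by group. DNER stood apart at 3.24 and 3.25, and LFNG, KAT2B and CTBP1 lay below 0 on both axes.

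Genes with the most similar pattern were sought by the root mean square (RMS) difference over the 12 arrays after each gene was centred on its own mean. For DLL1 they were ATP6V0D2 (RMS 0.22), ALOX5AP (0.35) and TMEM178A (0.36), whose 48 h changes were 2.74, 2.70 and 2.47. For JAG1 they were KIAA1143, ENPEP (both 0.10) and ADAM10 (0.11). For HES1 they were DOCK4 (0.13), STK3 (0.17) and PDLIM5 (0.18). For HEY1 they were SHE (0.26), MAP1LC3B (0.28) and HSPBAP1 (0.28). SHE changed by 1.67 at 12 h and 1.40 at 48 h. JAG2 was nearest to SPTAN1, UBQLN4 and PGAP2, NOTCH1 to CD109, STK35 and HMGN1, NOTCH2 to UGCG, NPAS2 and U2AF2, and NOTCH3 to PHAX, MED11 and CSTF1. These are descriptions of 12 arrays in 4 groups. The genes were picked on these same arrays, so their changes had to resemble those of the gene they were matched to. The RMS of a gene about its own mean was 1.40 for DLL1 but only 0.15 for NOTCH2, so a small difference means less there.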

How the data were processed

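The authors deposited 1 log2 signal for each probe set and array, made with GCRMA per the submitters' processing notes (version not given in the sources used here). GCRMA corrects background by probe sequence, normalises between arrays and summarises probe sets, and this can compress dim signals. The values were used as deposited. Of 54675 probe sets, 41091 carried exactly 1 symbol, 1801 several and 11783, with 62 Affymetrix controls, none. Of these, 41037 had a gene ID in the RefSeq gene table, and 0 symbols changed. Each gene was read on its brightest probe set (by the mean of all arrays), and 10683 of 19775 genes exceeded 4 on at least 3 arrays and were tested.

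One fit of 4 group means over 12 arrays was made in limma 3.58.1 (R 4.3.3), two-sided, with Benjamini-Hochberg adjustment over the genes tested and a threshold of 0.05. Changes are log2 differences ± SE. A fold is given as "at least" where all 3 arrays of one group lay under 4, with that group set to 4, a convention since detection calls were not used. The number of arrays limits the precision. The labels give no batch.

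The 8 genes, the lists and the alternatives were chosen with earlier results of these data known. Named genes are the 8, up to 3 called genes with the largest change per list group and time, and the 3 nearest genes in pattern. Promoters were read in Python 3.11.15. The fit was tested on simulated data of 10683 genes, with 67 changed by 0.5, 67 by 1 and 66 by 2. It recovered 61.2% of changes of 0.5, 92.5% of 1 and 100% of 2 at 12 h, with 11 false calls. At 48 h it recovered 62.7%, 91% and 100%, with 5 false calls. Far more genes were called in the data, 56.4% at 12 h, so these shares may not carry over. Alternatives changed the scaling, the filter, the probe set and the arrays used.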

Additional observations from a re-analysis of the deposited data

Results flagged for a closer look

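The effect of CdCl differed between 48 h and 12 h, by limma's test of the difference itself with adjustment over all genes tested, for 5 of the 8 genes. The difference, 48 h minus 12 h, was 3.23 for DLL1, which was higher with CdCl at 48 h only and passed the filter only through those arrays, so that it had to differ. It was 0.94 for JAG2, which was lower with CdCl at 12 h only. The second JAG2 probe set gave 1.09 without a call (limma adjusted p = 0.097). The difference was -0.79 for JAG1, lower at 48 h only, and -0.83 for HES1, called higher at 12 h only. On the second HES1 probe set, also called higher at 12 h, the difference was -0.37 (limma adjusted p = 0.55). For NOTCH2 it was 0.27, a call lost in 11 of 20 alternatives. Of all genes tested 40.1% passed this test.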

How the results depend on the processing

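Results were recomputed under up to 21 alternative settings, 12 of them leaving out 1 array. The interactions had 20, and genes near the floor fewer where a setting left them untested. No count of the 8 genes called moved by 1.5 times or more: it ran from 4 to 6 at 12 h, 4 to 5 at 48 h, 4 to 5 for the interaction, 5 to 7 for control cells over time and 4 to 6 for CdCl cells over time. The wider list gave 17 to 25 called genes at 12 h and 18 to 24 at 48 h. Replicate numbers did not pair the arrays, since same-numbered arrays of different groups correlated at -0.34 to 0.16, against -0.16 to 0.31 for other numbers. With the number as a replicate block, 4 of the 8 were called at 12 h, 4 at 48 h, 4 for the interaction, 6 for control cells and 4 for CdCl cells over time, and NOTCH2 at 12 h was not (limma adjusted p = 0.069).

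Several small values turned direction, all without a call except NOTCH2 at 12 h and in the interaction. DLL1 at 12 h became 0.00 after centring on the array median and after quantile normalization, 0.14 after centring on the genes tested, and -0.03 to 0.01 with 1 array left out. JAG1 at 12 h became 0.13 after the same centring, 0.17 on another probe set and -0.09 to 0.04 with 1 array left out. DLL1 in control cells over time ran from -0.02 to 0.02 with 1 array left out. The interaction of NOTCH3 became -0.07 after centring on the genes tested and ran from -0.10 to 0.29 with 1 array left out. That of HEY1 became -0.02 and -0.12 under the centrings and ran from -0.17 to 0.21 with 1 array left out. NOTCH2 on one probe set gave 0.27 at 12 h, 0.00 at 48 h and -0.28 for the interaction. HES1 at 48 h was 0.11 as the mean of its probe sets and 0.48 on the second one. The cause was not tested. Signal near 4 limits what can be read for NOTCH3, DLL1 and HEY1, and for DLL3 of the wider list.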
